A study of Homo sapiens with 14 samples.

Results

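The prolactin receptor gene PRLR and the signal transducer genes STAT5A, STAT5B and STAT3 were examined for regions bound by the progesterone receptor (PR) and by POLR3A, which is the largest of the RNA polymerase III subunits. Members were all regions of the 4 deposited lists that lay in a gene span of the RefSeq annotation of GRCh38 or within 50 kb of it. They numbered 278 of 227513 regions on chromosomes 1 to 22 and X. STAT5B, STAT5A and STAT3 adjoin on chromosome 17, so their windows were joined into 1 stretch of 289.3 kb (42149177 to 42438442), which held 80 regions. The PRLR window on chromosome 5 covered 281.7 kb (34998756 to 35280487) and held 198 regions.

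Chromatin immunoprecipitation followed by sequencing had been done in T47D, an established human breast cancer line with both oestrogen and progesterone receptors. Cells had received ethanol vehicle or progesterone (P4) for 1 h, and each antibody had 3 replicates per treatment. Each treatment also had a pooled input. All groups came from this single line, grown in serum with insulin. Each antibody and treatment had 1 deposited list, so no value could be set against the spread between replicates, and no test was made. The labels do not say whether replicates were separate cultures. Sequencing depth is unknown, because the lists hold no read counts.

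Prolactin binds its receptor at the cell surface and activates the kinase JAK2, which phosphorylates STAT5A and STAT5B. The phosphorylated STAT proteins pair, enter the nucleus and switch on genes. STAT3 is activated in the same way, mainly through receptors of the interleukin-6 family. In the mammary gland, prolactin acts through STAT5A on the growth and differentiation of milk-producing alveoli, and progesterone is needed for alveolar growth as well. PR is a transcription factor that binds progesterone and recognises a paired element of AGAACA-like sequence. RNA polymerase III makes transfer RNAs and other short RNAs, and none of the 4 genes is known as one of its own templates.

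The promoter sequences below show where regions touched the start of each gene. They are the 250 bases before a start site on the gene's strand, from the RefSeq table of GRCh38.p14. In PRLR (chr5:35230488-35230737, minus strand, before the upstream start site) the capitals run from the PR summit under P4 to the PR summit under vehicle. In STAT3 (chr17:42388443-42388692, minus strand) they mark the part inside a PR region of the P4 list. In STAT5B (chr17:42276392-42276641, minus strand) they mark the bases within 10 of a POLR3A summit under P4. In STAT5A (chr17:42287189-42287438, plus strand, before the first of 3 listed start sites) no region was present, and the capitals mark the only AGAACA.
PRLR: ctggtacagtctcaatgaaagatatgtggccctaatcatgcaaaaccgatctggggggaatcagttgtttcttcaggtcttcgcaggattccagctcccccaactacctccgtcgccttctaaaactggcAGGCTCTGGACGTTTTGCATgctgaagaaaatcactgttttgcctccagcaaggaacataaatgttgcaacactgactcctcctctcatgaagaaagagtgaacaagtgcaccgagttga
STAT3: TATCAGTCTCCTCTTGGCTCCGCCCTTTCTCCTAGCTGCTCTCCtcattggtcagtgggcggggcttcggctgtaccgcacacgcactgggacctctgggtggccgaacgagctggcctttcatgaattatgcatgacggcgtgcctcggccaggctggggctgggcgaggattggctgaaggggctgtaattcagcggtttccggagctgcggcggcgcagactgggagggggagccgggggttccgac
STAT5B: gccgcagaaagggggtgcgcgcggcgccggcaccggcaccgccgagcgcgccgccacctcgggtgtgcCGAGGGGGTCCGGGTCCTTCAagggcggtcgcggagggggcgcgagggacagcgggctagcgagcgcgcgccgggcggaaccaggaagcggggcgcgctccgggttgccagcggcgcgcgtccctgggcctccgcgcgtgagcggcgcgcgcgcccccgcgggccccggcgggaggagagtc
STAT5A: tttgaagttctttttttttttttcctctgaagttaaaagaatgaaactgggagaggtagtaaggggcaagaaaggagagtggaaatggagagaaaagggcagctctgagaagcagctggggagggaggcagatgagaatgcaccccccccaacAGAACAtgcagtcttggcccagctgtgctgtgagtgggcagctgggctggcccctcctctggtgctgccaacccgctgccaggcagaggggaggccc

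A set of motifs was searched on both strands in the 7 listed promoters of the 4 genes, 250 bases each. The set began with a loose form of the full progesterone response element. It also held the element that STAT proteins bind, TTCNNNGAA, and then GTTCNANNC, a loose form of the RNA polymerase III B box. None was found in any of the 7. Among the 34789 promoters of the table, 0.328% held the first, 6.57% the second and 6.3% the third. AGAACA, 1 arm of the strict response element, was added after the data were seen and lay in 3 of the 7 promoters and in 12.4% of all. Among these 3, a pair are overlapping windows of STAT5A that share 1 copy, 97 bases before the first start site, and the other is the promoter of the downstream PRLR start site. The STAT5B promoter was 82% G and C, and the upstream PRLR promoter 47.6%. The sequence under the sites inside the genes was not analysed here.

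PRLR, the receptor, carried the most regions of the 4 genes in every list. Its window held 29 vehicle and 84 P4 regions of PR, and 29 vehicle and 56 P4 regions of POLR3A. Per 100 kb of window this was 10.3 and 29.8 PR regions and 10.3 and 19.9 POLR3A regions. The median over the windows of 19817 protein-coding genes was 1.51 and 5.28 for PR and 0.971 and 1.72 for POLR3A. The PRLR densities lay above those of 96.2% and 97.5% of coding genes for PR under vehicle and P4, and of 94.9% and 97.4% for POLR3A. PRLR was thus dense in regions of both antibodies under both treatments. Each of the 4 genes had at least 1 region of every list in its window, as did 57.4% of coding genes.

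The STAT genes stood nearer to the median gene than PRLR did. They lay above it in every list, except STAT5A for POLR3A under vehicle, at 0.803 per 100 kb against a median of 0.971. STAT3 had 9 vehicle and 28 P4 regions of PR in its window, with densities above those of 84.4% and 85% of coding genes. STAT5B had 8 and 23 PR regions, with densities above those of 79.5% and 77.2% of coding genes. STAT5A had 6 and 14, above 82.9% and 74.6%. For POLR3A the counts under vehicle and P4 were 4 and 13 at STAT3, 4 and 14 at STAT5B, and 1 and 6 at STAT5A. In the same order, these densities lay above those of 66.5% and 82.4%, 65.4% and 82.3%, and 42.7% and 72.9% of coding genes. The order by density was PRLR, STAT3, STAT5B and STAT5A for PR under P4, and the 3 STAT windows overlap, so that part of their regions are counted for several genes. The plot of density by gene shows the step from the STAT genes to PRLR.

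**Figure D1:**
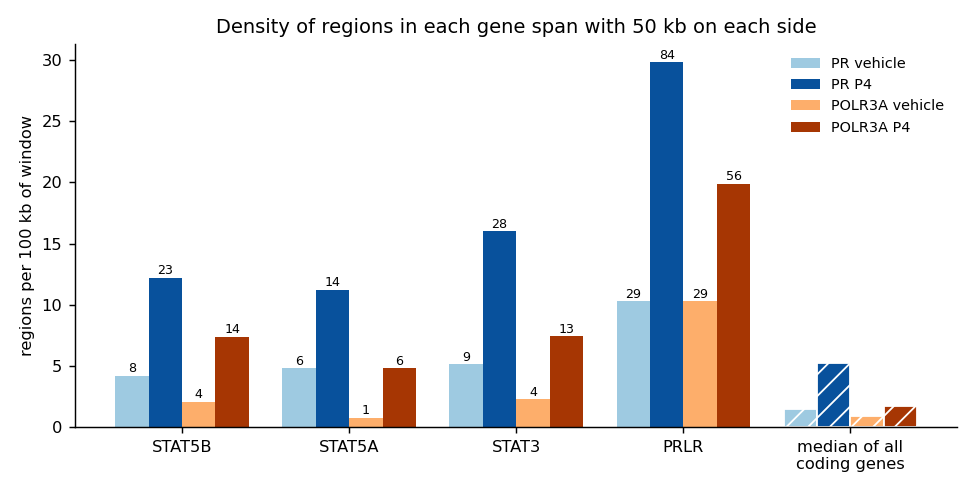
Regions per 100 kb of window (y axis) for each of the 4 genes and each of the 4 lists, with the number of regions above each bar; hatched bars are the medians over all protein-coding genes. PRLR stands highest in every list, at 29.8 PR regions per 100 kb under P4, against a median of 5.28.

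Every one of the 4 genes had more regions under P4 than under vehicle, for both antibodies. Such a difference was common. It was seen for PR in 87.2% of all protein-coding gene windows and for POLR3A in 51.3%. Over both loci, PR regions numbered 40 under vehicle and 124 under P4, a ratio of 3.1, against 2.86 for the whole lists. POLR3A regions numbered 36 and 78, a ratio of 2.17 against 1.64. With the PR P4 list cut to the 38933 strongest regions, the length of the vehicle list, the PRLR window held 29 PR regions under each treatment. The STAT window then held 11 under vehicle and 10 under P4, so the larger PR numbers did not hold at equal length. The cut itself sets the ratio of the whole lists to 1, so it cannot decide whether P4 added PR regions here. For POLR3A at equal length, the PRLR window held 29 under vehicle and 37 under P4, and the STAT window 7 and 10.

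The strongest PR site of the 3 STAT genes lay inside STAT5A, the main STAT of the prolactin response. Under vehicle its region spanned 42294296 to 42295165 on chromosome 17, with a fold enrichment of 47.62 and a −log10 q of 296, rank 173 of 38933. The fold is the authors' enrichment of the summit over the local background, and −log10 q is the size of the adjusted p-value's exponent, by which regions were ranked within their list. Under P4 it spanned 42293640 to 42295352, with a fold of 56.21 and a −log10 q of 378, rank 280 of 111515. The summits were 24 bp apart and 6.16 and 6.18 kb downstream of the last listed STAT5A start site. Because both values belong to 1 region in 1 list, a higher fold under P4 is no measured change in binding, here and below.

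POLR3A was also called at this STAT5A site under P4, with a fold of 3.36 and percentile 31.6 of its list by −log10 q, and not under vehicle. A smaller PR region lay between it and the start site, with a fold of 4.95 under vehicle and 5.87 under P4. No list had a region within 1 kb of any of the 3 listed STAT5A start sites. The nearest PR regions began 2.97 kb from a start site under P4 and 3.39 kb under vehicle. Of all 15811 protein-coding genes with a listed start site, 43.9% had no region of any list within 1 kb.

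At STAT3, all 4 lists had a region within 1 kb of the start site at 42388442, as did 11.9% of protein-coding genes. The strongest PR region there had its summit 1.1 kb inside the gene, with a fold of 8.19 under vehicle and 13.39 under P4. A weaker PR region, with a summit 359 bp before the start site and a fold of 4.28, was in the P4 list alone and is the one that reaches the promoter shown above. POLR3A summits lay 594 bp before the start site under vehicle and 455 bp before it under P4. Their folds were 3.84 and 3.15. STAT3 is thus the only STAT gene with both antibodies within 1 kb of its start site. At a −log10 q of at least 5 it kept PR alone, since these POLR3A regions had 4.19 and 2.79. Within 5 kb of a start site, STAT5B and STAT5A had both antibodies too, with POLR3A under P4 only.

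STAT5B, the close relative of STAT5A, had a single region within 1 kb of its listed start site at 42276391, which lies inside the annotated STAT5B span. It was a POLR3A region of the P4 list with a fold of 3.69 and its summit 172 bp before the start site, inside the promoter shown above. Its nearest PR regions were 1.11 kb downstream of the start site under vehicle and 1.19 kb under P4, with folds of 3.7 and 3.81. For comparison, 22.7% of protein-coding genes had a PR region within 1 kb of a start site under vehicle and 48.4% under P4, and 30.6% and 32.8% had a POLR3A region.

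Several strong regions of the STAT window belonged to neighbouring genes by position. The PR regions ranked next in the window lay in RAB5C, with a fold of 9.8 under vehicle and 28.53 under P4, and in KCNH4, with 13.13 and 22.54. The RAB5C site (42152751 to 42154778) was the only place of the STAT window with a region in all 4 lists, and its POLR3A folds were 3.74 and 4.64. The fifth PR region under P4, with a fold of 8.6, and the strongest POLR3A region under P4, with a fold of 5.38, lay within 1 kb of each other upstream of STAT3, in the non-coding gene LOC102725238. Summits inside the spans of STAT5B, STAT5A or STAT3 made up 8 of 11 PR regions under vehicle and 24 of 40 under P4. For POLR3A they made up 3 of 7 and 9 of 22.

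**Figure D2:**
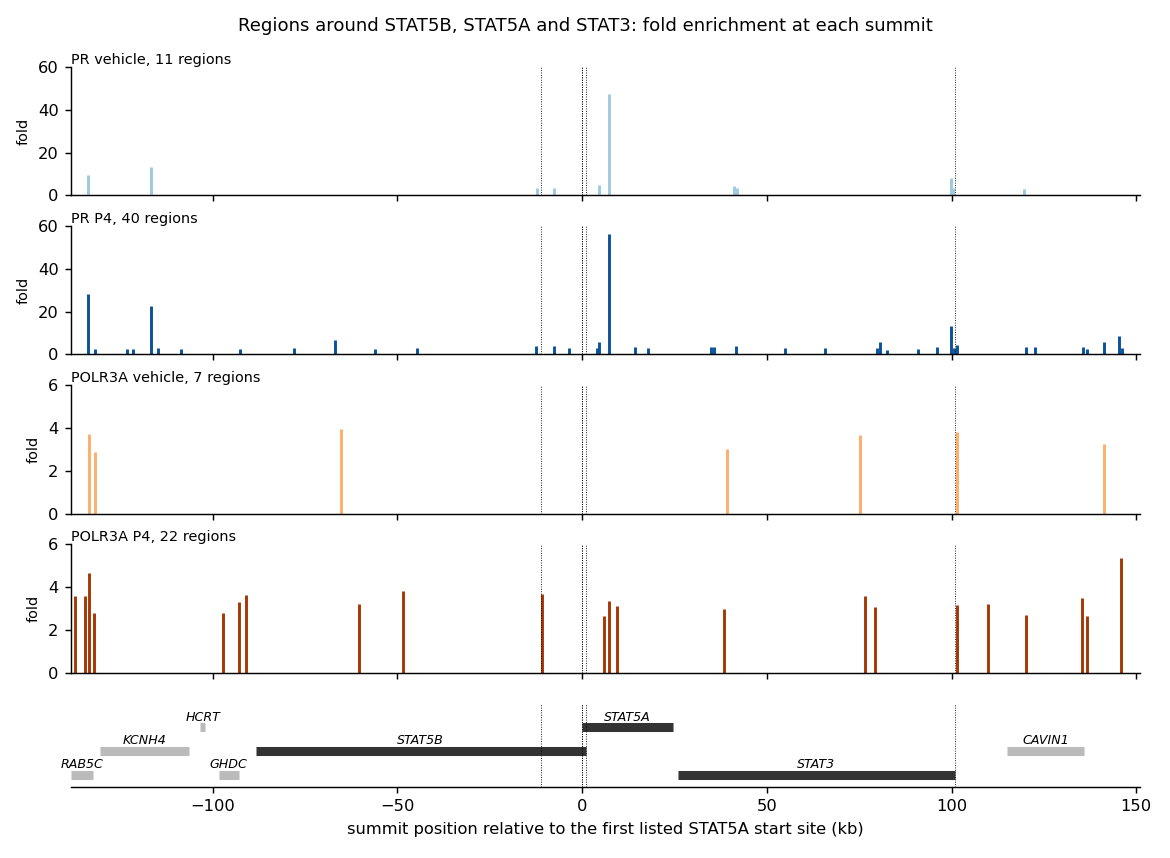
Fold enrichment (y axes, the authors' values, to 60 for PR and to 6 for POLR3A) at each summit across the joined STAT window, by distance in kb from the first listed STAT5A start site (x axis); bars at the bottom are gene spans and dotted lines listed start sites. The STAT5A site stands at 47.62 for PR under vehicle and 56.21 under P4, and no POLR3A region passes 5.38.

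The strong PR regions of PRLR lay on the side of the upstream start site. The span of PRLR (35048756 to 35230487, minus strand) covers 182 kb, and the promoter table lists an upstream start site at 35230487 and a downstream one at 35118122. With the span cut into 4 equal stretches of 45.4 kb from the upstream start, 16 of 26 PR summits under vehicle lay in the first stretch and 2 in the last. Under P4 the stretches held 28, 15, 20 and 9 of 72 PR summits in order, so the third held more than the second. For POLR3A the stretches held 13, 8, 3 and 5 of 29 under vehicle and 20, 11, 12 and 7 of 50 under P4. In the 2 stretches farthest from the upstream start, no PR region had a fold above 4.65 under vehicle or 9.52 under P4.

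The 5 strongest PR regions of each treatment fell at 6 places of PRLR. At 2.58 kb downstream of the upstream start, the folds were 29.75 under vehicle and 44.27 under P4. At 24.7 kb they were 44.97 and 39.59, and at 58.3 kb 35.15 and 47.66. These 3 places were among the strongest sites of the whole lists, at percentiles 98.3 to 99.6 of −log10 q. A percentile is the share of the list at or below that −log10 q. The site at 24.7 kb had the highest −log10 q of the window under vehicle and not under P4, and no POLR3A region overlapped it. The promoter itself had folds of 11.38 and 25.63. A site at 27.4 kb had 7.95 and 24.17 and was among the 5 only under P4, and one at 16.6 kb had 9.17 and 16.34 and was among them only under vehicle.

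At the promoter, the PR region covered the upstream start site under both treatments (35230374 to 35230745 under vehicle and 35230329 to 35230768 under P4). Its summits lay 101 and 120 bp before the start, in the capitals of the sequence shown above. A POLR3A region of the vehicle list covered the start site too, with a fold of 4.6 and its summit 108 bp inside the gene. Under P4 the nearest POLR3A region was 1.7 kb away. The downstream start site had 2 PR regions and 1 POLR3A region within 1 kb under P4, with folds of 2.97 for the nearest PR region and 4.31 for POLR3A, and none under vehicle.

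**Figure D3:**
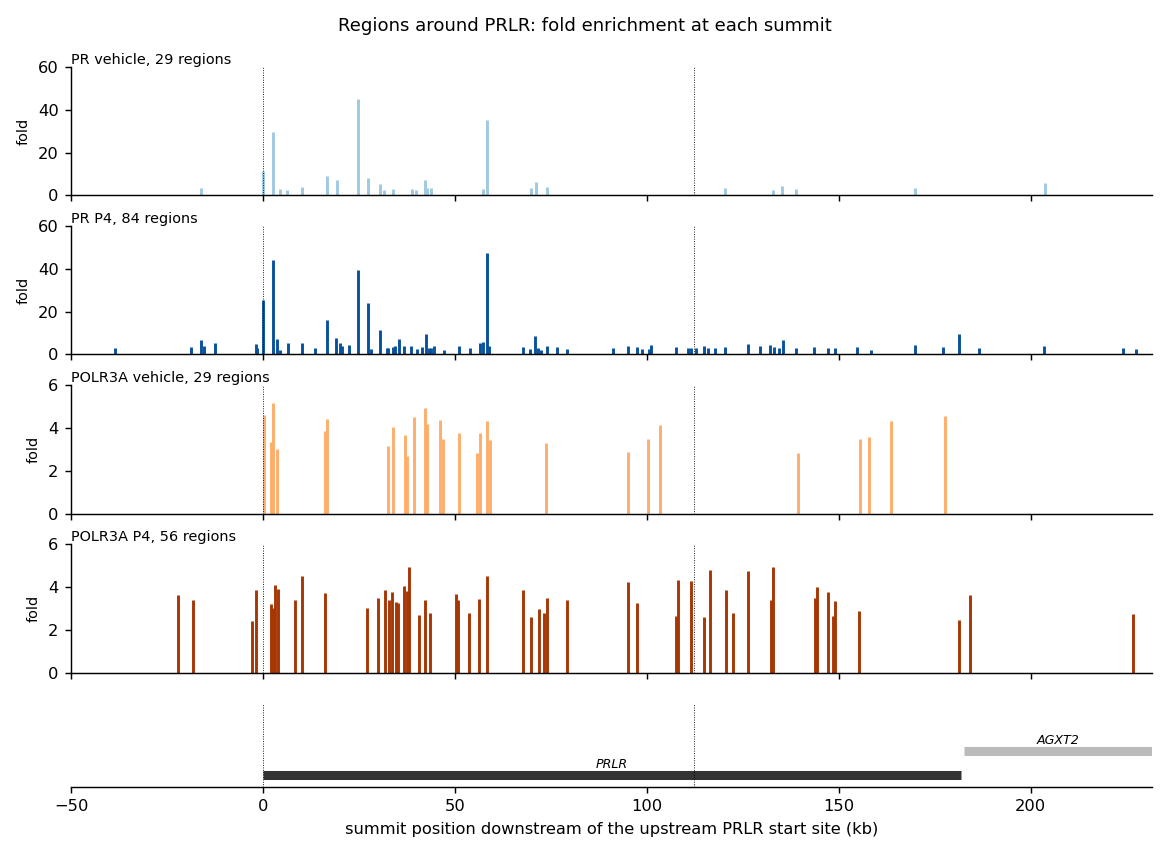
Fold enrichment (y axes, the authors' values, to 60 for PR and to 6 for POLR3A) at each summit across the PRLR window, by distance in kb downstream of the upstream start site (x axis); dark and grey bars are gene spans and dotted lines the listed start sites. The highest PR folds, 44.97 under vehicle and 47.66 under P4, lie within 58.3 kb of the upstream start.

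The POLR3A regions of both loci were weak. The highest fold was 3.98 under vehicle and 5.38 under P4 in the STAT window, and 5.18 and 4.95 in the PRLR window. In the whole lists the highest were 99.3 and 83.8. None of the 36 vehicle and 78 P4 regions had a −log10 q of 10 or more, against 8.78% and 5.4% of the whole POLR3A lists. Of the PR regions, 4 of 11 and 9 of 40 in the STAT window reached it, and 10 of 29 and 21 of 84 in the PRLR window, against 32.2% and 27.4% of the whole PR lists. The strongest POLR3A regions of PRLR were at 42.1 and 2.58 kb from the upstream start and at the start itself under vehicle, with folds of 4.93, 5.18 and 4.6. Under P4 they were at 133, 38.1 and 116 kb, with folds of 4.95, 4.95 and 4.81. The POLR3A regions of PRLR that ranked highest thus differed between the lists of the 2 treatments. The vehicle regions at 42.1 and 2.58 kb were also called under P4, with folds of 3.42 and 3.04. The vehicle region at the start and the regions named for P4 overlapped no POLR3A region of the other treatment.

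Most PR regions of the vehicle list were called again under P4. In the STAT window this held for 9 of 11 and in the PRLR window for 26 of 29, against 75.7% of the whole vehicle list. The 5 without a P4 region had folds of 2.74 to 4.2 and lay at percentiles 6.01 to 46.9 of the vehicle list. In the other direction, 9 of 40 STAT and 27 of 84 PRLR regions of the P4 list overlapped a vehicle region. These are 22.5% (95% Clopper-Pearson interval 10.8 to 38.5) and 32.1% (22.4 to 43.2), and the whole list had 25.8%. Intervals cover counting error over regions only. In the top 10% of PR regions under P4, 4 of 4 in the STAT window and 8 of 8 in the PRLR window had a vehicle region, against 95.6% of the whole list.

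Where PR regions overlapped between treatments, the summits fell close together. There were 37 overlapping pairs, and in 26 the summits were within 50 bp, with a median distance of 24 bp. Over the whole lists 64.4% of pairs were that close. The fold was higher in the P4 list in 29 of the 37, against 80.7% of all pairs. Among the 8 others was the PRLR site at 24.7 kb, with 44.97 under vehicle and 39.59 under P4.

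Of the POLR3A regions of the vehicle list, 3 of 7 in the STAT window and 16 of 29 in the PRLR window were called again under P4, against 42% of the whole list. The whole P4 list was 2.86 times as long as the vehicle list for PR and 1.64 times for POLR3A, so the shares of both antibodies are not compared. From the P4 side, 3 of 22 STAT and 15 of 56 PRLR regions overlapped a vehicle region. These shares were 13.6% (2.91 to 34.9) and 26.8% (15.8 to 40.3), and that of the whole list was 25.8%. In the top 10% of POLR3A regions under P4, 0 of 1 in the STAT window and 0 of 4 in the PRLR window had a vehicle region, against 74.1% of the whole list. These member regions lay low in that 10%, at percentiles 90.6 to 93.3 and −log10 q of 7.11 to 8.67. The 74.1% also counts the stronger regions above them, so the shares are not of like regions. Of 19 overlapping pairs, 5 had summits within 50 bp, against 38.8% of all pairs, and 8 had the higher fold in the P4 list, against 40.3%.

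**Figure D4:**
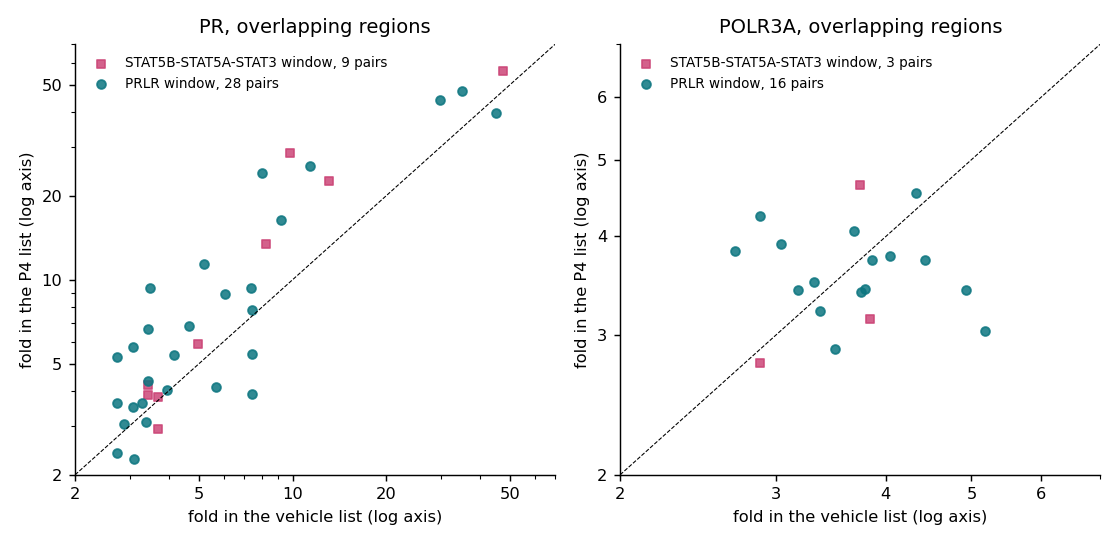
Fold enrichment in the vehicle list (x axis) and the P4 list (y axis), both on log axes, for regions that overlap between treatments, for PR (left) and POLR3A (right); squares are the STAT window, circles PRLR and the dashed line equal values. For PR, 29 of 37 points lie above the line, and for POLR3A 8 of 19.

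PR and POLR3A regions overlapped often at PRLR under P4. There, 39 of its 56 POLR3A regions overlapped a PR region, 69.6% (95% Clopper-Pearson interval 55.9 to 81.2), against 50.5% of the whole list. In the STAT window it was 9 of 22, 40.9% (20.7 to 63.6). Under vehicle, 11 of 29 POLR3A regions of PRLR did so, 37.9% (20.7 to 57.7), and 1 of 7 in the STAT window, against 32.3%. Seen from PR, 37 of the 84 PRLR regions under P4 overlapped POLR3A, 44% (33.2 to 55.3), against 20.9% of the whole list, while in the STAT window it was 7 of 40, 17.5% (7.34 to 32.8). Of the PR regions under vehicle, 9 of 29 at PRLR and 1 of 11 in the STAT window overlapped POLR3A, against 24.2%.

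PRLR also had the denser regions. PR regions of the P4 list covered 11.3% of its window and 5.51% of the STAT window, and POLR3A regions 7.02% and 2.4%. The part of density in the overlap was not tested. The P4 overlap also moved with the length of the PR list. With the PR P4 list cut to the length of the POLR3A P4 list, 24 of the 78 POLR3A regions of both loci overlapped PR, 30.8%, in place of 61.5%, against 27.1% of the whole list treated alike. Summits of overlapping PR and POLR3A regions at PRLR under P4 were a median of 155 bp apart over 40 pairs, and 9 pairs were within 50 bp.

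**Figure D5:**
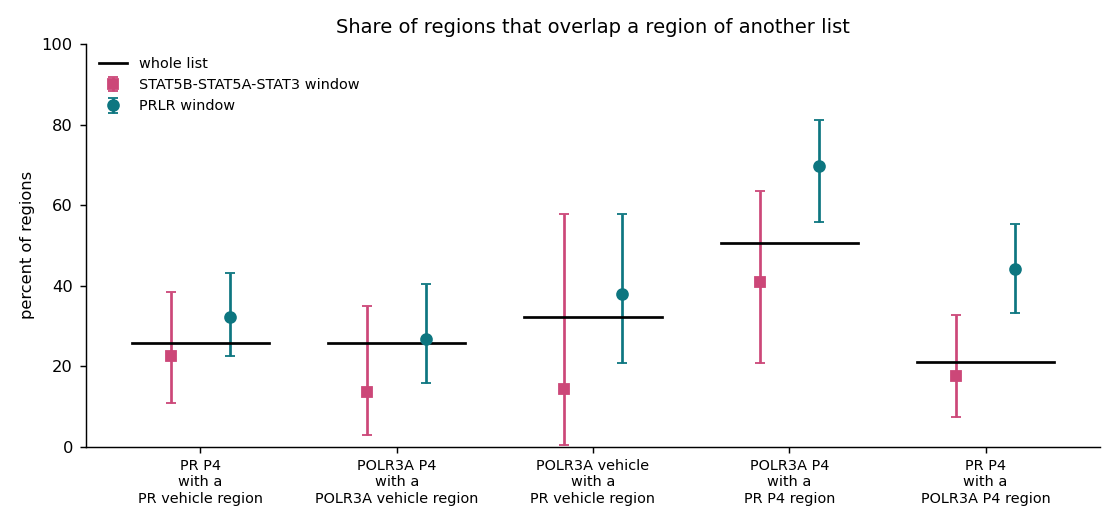
Percent of regions (y axis) that overlap a region of another list, for 5 pairs of lists (x axis), in the STAT window (squares) and the PRLR window (circles); error bars are 95% Clopper-Pearson intervals for counting error and black lines the whole lists. The PRLR values for the P4 pairs of PR and POLR3A, 69.6% and 44%, lie above the lines at 50.5% and 20.9%.

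When overlapping regions of any list were chained into places, PRLR had 106 and the STAT window 57. All 4 lists met at 6 PRLR places and at 1 STAT place, the RAB5C site, or 5.66% and 1.75%, against 4.23% of all 150886 places. The 6 were at 2.58, 16.6, 33.8, 42.3, 58.3 and 73.9 kb from the upstream start under vehicle, so all lay on that side of the gene and none at its 3′ end. At 33.8 kb all folds were low, 3.06 and 3.5 for PR and 4.04 and 3.78 for POLR3A, while at 58.3 kb PR stood far above POLR3A, at 35.15 and 47.66 against 4.33 and 4.54. A further 28 of the 106 PRLR places and 24 of the 57 STAT places had PR under P4 alone. This was the most frequent class in both windows and in the whole series, where it made up 44.2% of places. Places with a region in only 1 list made up 47.2% at PRLR and 71.9% in the STAT window, against 68.7% of all places. Places with PR and POLR3A under P4 and neither under vehicle numbered 17 of 106 at PRLR and 4 of 57 in the STAT window. They made up 5.55% of all places.

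The other genes of the pathway were taken from a list of 38 receptors, kinases, inhibitors and targets. PR regions were present in the windows of 31 under vehicle and 36 under P4, or 81.6% and 94.7%, against 74.6% and 90.5% of all coding genes. POLR3A regions were present at 29 under each treatment, 76.3%, against 68.7% and 71.9%. Within 1 kb of a gene end, 16 and 26 of the 38 had PR, against 23.9% and 50.2% of coding genes, and 11 and 17 had POLR3A, against 30.8% and 33.6%. More PR regions under P4 than under vehicle were found at 34 of the 38 (89.5%), near the 87.2% of all coding genes, and more POLR3A regions at 24 (63.2%), against 51.3%. The median number of regions was 3 and 11.5 for PR and 3 and 4.5 for POLR3A, against 2 and 8 and 2 and 2 for all coding genes.

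By role, the 7 other receptors of the list, such as GHR and IL6ST, had 50 PR regions in all under vehicle and 112 under P4. The 4 kinases of the JAK family had 14 and 54, and the 4 other STAT genes 25 and 65. The 7 feedback inhibitors, SOCS proteins and CISH, which shut down the receptor's signal, had 20 and 97. The 4 phosphatases had 18 and 80, the 4 PIAS proteins, which restrain STAT proteins in the nucleus, 18 and 54, and the 7 target genes 63 and 153. No region of any list was in the window of JAK2, the kinase that the prolactin receptor uses, or of CSN2, the gene of the milk protein β-casein. Windows without regions were no more frequent here than elsewhere. PR under P4 was present at 94.7% of the 38 genes, against 90.5% of all coding genes. PRL, which encodes prolactin itself, had a single region, of PR under P4.

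Regions of all 4 lists lay within 1 kb of a gene end at 8 genes of the list, or 21.1%, against 12.7% of coding genes. They were the receptors IL6R and OSMR, STAT2 and STAT6, the phosphatases PTPN1 and PTPN11, and the survival genes MCL1 and BCL2L1. The highest PR fold in the window of BCL2L1 was 45.3 under vehicle and 37.5 under P4, at STAT2 35.4 and 39.4, and at MCL1 20.5 and 34.2. At OSMR it was 6.21 and 6.39 and at PTPN11 3.88 and 4.98. It was 4.63 and 10.3 at IL6R, 5.81 and 7 at STAT6, and 13.1 and 32.3 at PTPN1. The highest PR folds in these windows thus spanned a wide range, and they need not belong to the regions at the gene ends.

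Genes with the most similar numbers of regions in the 4 lists were sought among coding genes of similar window length. Likeness was the sum over lists of the difference in log2(number + 1). For PRLR the closest of 1461 genes were ANO1 (sum 0.56), DLG5 (0.57) and SRGAP2B (0.98). ANO1 had 26 and 88 PR and 24 and 59 POLR3A regions under vehicle and P4, while the median of these genes was 3 and 9, and 1 and 2. For STAT3 they were YEATS4 (0.16), TNIP1 and NEURL1B, for STAT5B CCM2 (0.17), GAPVD1 and ALG9, and for STAT5A ZBED4 (0.10), SPACA4 and NAGS. The likeness rests on 4 lists, which share the cells and, by antibody, the reagents.

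The border of 50 kb cut through no strong site. The nearest PR regions of the P4 list inside it had summits 4.61 and 4.87 kb from the 2 edges of the STAT window, with folds of 28.53 and 2.91, and those outside 6.18 and 3.78 kb, with 2.89 and 2.91. For PRLR they were 4.42 and 11.4 kb inside, with 2.77 and 3.22, and 68.6 and 3.86 kb outside, with 3.83 and 3.06.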

How the data were processed

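The 4 deposited lists were used as the authors made them. Per the submitters' processing notes, cutadapt, Bowtie2 and MACS2 and the build hg38 were used. Versions, parameters and how replicates were combined are not given in the sources used here. Nor do they say whether the pooled input of each treatment served as the control. Each list gives, as deposited, a fold enrichment (a ratio), a −log10 q (the highest q-value is 0.0497), a score that is −log10 q scaled to a whole number, and the summit. Depth is unknown. Members and lists of genes were chosen with earlier results of these data known.

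Coordinates are 1-based. Gene spans and start sites came from RefSeq tables of GRCh38.p14, whose base build the lists share; 19817 protein-coding genes on chromosomes 1 to 22 and X were kept, and 15811 had a listed start site. Regions were shared at an overlap of at least 1 bp. The named regions were the 5 PR and 3 POLR3A regions with the highest −log10 q per locus and list, places in all 4 lists, and regions within 1 kb of a start site. Pathway genes named were those with all 4 lists within 1 kb of an end and those with no PR region under P4, and PRL, which was chosen after its values were seen. A planned search for motifs at PR summits was replaced by a search of promoters, since a genome sequence was not used here. Analyses used Python 3.11.15, pandas 2.3.3 and scipy 1.17.1. The overlap code was tested on simulated data, and its counts equalled those of bedtools 2.31.1 in both comparisons made. Alternatives were thresholds on −log10 q, lists cut to equal length, other windows, and a reciprocal overlap of 50%.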

Additional observations from a re-analysis of the deposited data

How the results depend on the processing

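Of 47 alternative values, 28 stayed within the interval of the reported value, or within 1.5 times a count. The ratio of P4 to vehicle PR regions, 3.1, was 2.14 at a −log10 q of at least 10, against 2.86 and 2.43 for the whole lists. It was 0.975 with the lists cut to equal length, the only reversal, where the cut sets the whole-list ratio to 1. The ratio of POLR3A, 2.17, was 1.33 at −log10 q of at least 5 and 1.31 at equal length. The whole lists had 1.64, 1.18 and 1. The share of PR P4 regions with a vehicle region, 29%, was 46.7% at −log10 q of at least 10, 59% at equal length and 21% with a reciprocal overlap of 50%. The whole list had 25.8%, 38.2%, 55.9% and 18.6%. The same share for POLR3A, 23.1%, was 8.33% (1 of 12) at −log10 q of at least 5, against 25.8% and 40.3% of the whole list. POLR3A regions with a PR region were 33.3% under vehicle, and 55.6% (5 of 9) at −log10 q of at least 5 and 16.7% with the reciprocal overlap. The whole vehicle list had 32.3%, 38.9% and 18.8%. Under P4 the share was 61.5%, and 50% (6 of 12) at −log10 q of at least 5, 30.8% at equal length and 34.6% with the reciprocal overlap. The whole P4 list had 50.5%, 58.3%, 27.1% and 26.1%, so the share at −log10 q of at least 5 lay below that of the whole list. Of 16 pairs of gene and list, 9 had a region within 1 kb of a start site, 4 at −log10 q of at least 10 (PR at STAT3 and PRLR) and 14 within 5 kb. Of the 38 pathway genes, 29 had POLR3A under each treatment, 12 and 13 at −log10 q of at least 5, and 3 and 3 at 10. The shares of all coding genes were 68.7% and 71.9%, then 35.3% and 34.7%, and 9.93% and 8.84%. No POLR3A region of the windows reached a −log10 q of 10, so the POLR3A results have no value there, and the planned motif alternatives were not run, because they needed summit sequence. Member promoters with response element letters were 0 of 7 for the full element and 3 of 7 for AGAACA. No paired analysis was possible because each group has 1 list over its replicates, which also prevents leaving out a replicate. The unknown depth limits every comparison of list lengths.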
